A study of Mus musculus with 6 samples.

Results

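The genes described here are the mouse genes that carry choline into cells, turn it into acetylcholine, break acetylcholine down, or start the use of choline for membrane lipid: Slc5a7, Slc44a1, Slc44a2, Slc44a3, Chat, Slc18a3, Ache, Bche, Chka and Chkb. They are 10 of the 54532 genes in the table of read counts, found by matching Ensembl identifiers to symbols in the GENCODE M21 annotation of the mouse genome build GRCm38. The group was formed around Slc5a7, which was chosen by its measured rise in read counts between the diets in these same libraries. Its diet difference is therefore given as a description with no test, and the others stand beside it as the named members of the same pathway.

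The tissue was whole epididymal fat, the visceral fat pad beside the male reproductive tract, from untreated male C57BL/6J mice. One group was kept on a normal diet (ND) with 4.5% fat and the other on a high-fat diet (HFD) with 60% fat. Feeding started when the mice were 4 weeks old and went on for 16 weeks, and each diet had 3 RNA-Seq libraries, written here as ND 1 to 3 and HFD 1 to 3. Neither the labels nor the study's methods say whether each library came from a separate animal, so a p-value measures the spread between these libraries, which may be technical in part.

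Choline is a positively charged nutrient that crosses membranes only through carriers. In cholinergic nerve endings the high-affinity, sodium-dependent carrier encoded by Slc5a7 brings choline back in, Chat joins it to an acetyl group to make acetylcholine, Slc18a3 loads the product into vesicles, and Ache hydrolyses it after release. In other cells, fat cells included, most choline enters through carriers such as those of the Slc44 family and is phosphorylated by choline kinase, the opening step of the CDP-choline route to phosphatidylcholine, which among other uses coats the lipid droplet.

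The count totals ran from 16996896 to 18859320 per library, and levels are given as CPM, the count relative to the library's total after TMM scaling. A count of 3 is used as the floor, below which a gene is not taken as measured, and it equals 0.150 to 0.181 CPM in these libraries. All 10 adipocyte markers were measured, and their summed level was 34930 to 44863 CPM on ND and 21511, 32609 and 13931 CPM in HFD 1, 2 and 3. Cfd weighed most in the fall of that sum, with a mean of 13634 CPM on ND and 1275 CPM on HFD. Fabp4, the other large term, overlapped between the diets, with means of 12431 and 10495 CPM. The summed level of 12 macrophage markers was 1967 to 2067 CPM on ND and 5278, 4137 and 8904 CPM in HFD 1, 2 and 3. HFD 2 thus had the highest adipocyte and the lowest macrophage level of the HFD libraries, and HFD 3 the reverse. ND 3 stood apart from all other libraries in 7 epithelial markers, with a summed 186 CPM against 8.93 to 12.6 CPM elsewhere. Because the tissue was sequenced whole, fewer cells of a type and less RNA per cell cannot be told apart in any of the values that follow.

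The promoters of Slc5a7, Bche and Slc44a3 are printed because these members showed the largest differences between the diets. Each is 300 bases from RefSeq on GRCm38.p6, on the minus strand, printed in the direction of transcription with the start site close to the right-hand end. Capitals mark matches to the TATA box, with the letters TATAAA, to the CCAAT box, to the GC box, with the letters GGGCGG, and to an ETS family core with its flank, with the letters GAGGAA. Both strands were searched, and a match of 1 motif may overlap that of another. A match on the opposite strand appears as its reverse complement.
Slc5a7, chr17:54298985-54299284: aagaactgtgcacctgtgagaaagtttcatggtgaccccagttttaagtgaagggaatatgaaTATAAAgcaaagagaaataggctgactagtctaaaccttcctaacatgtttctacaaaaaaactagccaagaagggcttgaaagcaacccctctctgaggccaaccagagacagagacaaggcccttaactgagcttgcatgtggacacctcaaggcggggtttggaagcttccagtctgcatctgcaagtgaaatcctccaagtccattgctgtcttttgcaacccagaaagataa
Bche, chr3:73708366-73708665: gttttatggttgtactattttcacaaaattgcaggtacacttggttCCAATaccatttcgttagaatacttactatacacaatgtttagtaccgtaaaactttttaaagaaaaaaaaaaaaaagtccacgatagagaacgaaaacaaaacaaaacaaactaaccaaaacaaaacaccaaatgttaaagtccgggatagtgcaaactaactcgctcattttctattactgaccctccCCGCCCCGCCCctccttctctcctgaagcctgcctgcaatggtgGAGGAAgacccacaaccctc
Slc44a3, chr3:121532295-121532594: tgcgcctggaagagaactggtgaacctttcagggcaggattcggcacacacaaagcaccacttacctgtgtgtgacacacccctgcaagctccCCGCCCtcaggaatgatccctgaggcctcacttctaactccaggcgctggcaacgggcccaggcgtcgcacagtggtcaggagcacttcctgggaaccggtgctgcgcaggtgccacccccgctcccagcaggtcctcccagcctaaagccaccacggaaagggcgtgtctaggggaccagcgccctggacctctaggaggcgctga
Counted from the start site as 0, the match in the Slc5a7 window was a TATAAA from -187 to -182. The Bche window held a CCAAT from -204 to -200, a pair of overlapping GC boxes on the opposite strand from -14 to -9 and from -9 to -4, and a GAGGAA from 30 to 35. The Slc44a3 window held a GC box from -157 to -152 on the opposite strand. The RefSeq start lay on the GENCODE gene start for Slc5a7 and Bche and 60 bases from it for Slc44a3.

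The Slc5a7 window was poor in CpG dinucleotides, with 1 CpG and 44.7% G and C. Over 32851 RefSeq promoters of the same length the medians were 7 CpG and 52.7%, and 14.1% of promoters had no more CpG than that of Slc5a7. The Bche window held 8 CpG at 39.3% G and C, and the Slc44a3 window 14 CpG at 63.3%. All 10 members matched a promoter, Slc44a1 and Slc44a2 more than 1. A member was counted for a motif if any of its windows held it, whereas the shares are of single promoters. The CCAAT of Slc44a2 was only in its window that starts 17130 bases from the GENCODE gene start. The GC box was found in 8 of the 10 members, all but Slc5a7 and Chat, against 35.7% of all promoters. The other motifs searched were an E-box (CACGTG, 2 members, 7.15% of promoters), an AP-1 site (TGANTCA, 0 members, 7.81%), a nuclear receptor half-site (AGGTCA, 0 members, 16.3%) and a CRE half-site (TGACG, 4 members, 20.8%). TATAAA was in 2 members (Slc5a7 and Chkb) and 13.6% of promoters, CCAAT in 5 and 37.4%, and GAGGAA in 2 and 28.3%. A match is a string of letters and not a binding site, and none of these windows was assayed for binding.

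Slc5a7 (ENSMUSG00000023945, chr17:54273590-54299034, minus strand), the high-affinity choline carrier, was close to unread on ND and abundant on HFD. It had 2, 0 and 0 counts in ND 1, 2 and 3, all under the floor, and 1101, 999 and 1023 counts in HFD 1, 2 and 3. Its level on HFD was 60.2, 60.2 and 58.9 CPM, or 59.7 ± 0.718 CPM (SD, n = 3). Set against the highest ND floor of 0.174 CPM, it was at least 343-fold higher on HFD. No annotated exon of another gene overlaps its exons. This is the difference for which the gene was chosen, and no test is attached to it.

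The HFD libraries held Slc5a7 at nearly the same level. Its coefficient of variation over HFD 1 to 3 was 1.2%, below the 3.1% that counting error alone gives at its mean of 1041 counts. Among the 4835 tested genes whose mean HFD level lay within a factor of 2 of it, the median coefficient of variation was 12.4% and 43 genes, 0.889%, had a smaller one. The coefficient of variation of Slc5a7 depends on how libraries are scaled. It was 1.8% with DESeq2 size factors and 4.28% with library size alone, the latter above the 3.1% of counting error. The rank among the 4835 genes was taken under TMM scaling alone. It describes a gene chosen from these same values and is not a test. The adipocyte and macrophage marker sums given above differed by more than a factor of 2 between HFD 2 and HFD 3, whereas Slc5a7 differed by less than 3% under TMM scaling. What part the mix of cells had in the Slc5a7 level was not tested.

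Other genes at or under the floor in every ND library are listed as a description. Slc5a7 was chosen by its rise between the diets, so its higher HFD level than theirs follows at least in part from that choice. Besides Slc5a7, 48 tested genes had at most 3 counts in every ND library. They had enough counts to be tested only because of their HFD libraries. The highest mean HFD level among them was 27.8 CPM, for Gpr50, a melatonin-receptor-like receptor. In the 11 of these with a mean HFD level of at least 5 CPM, the coefficient of variation over the HFD libraries was 26.4% to 94.8%. The 5 with the highest HFD levels were Gpr50 (40.3, 15.1 and 27.9 CPM in HFD 1, 2 and 3), the growth factor Gdf3 (14.8, 7.35 and 25.9 CPM), the myosin heavy chain Myh15 (13.7, 6.38 and 15.1 CPM), Oit3 (6.17, 1.81 and 10.9 CPM) and the neuropeptide Npy (4.97, 0.903 and 12.2 CPM). Each of these was lowest in HFD 2, where Slc5a7 was as high as in HFD 1.

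Likeness was also measured as the root mean square difference from Slc5a7 in log2(CPM + 1) over the 6 libraries, among protein-coding genes. The nearest was F7, which encodes coagulation factor VII, at 0.63, followed by Tm4sf19 at 0.79, Vsig8 at 0.80, Gpr50 at 0.93 and Rgs1, a regulator of G-protein signalling, at 0.94. F7 had 0.216, 0.348 and 0.9 CPM on ND and 59.0, 33.1 and 102 CPM in HFD 1, 2 and 3. Its mean on HFD was close to that of Slc5a7, but its spread was not, with a coefficient of variation of 53.9%. In F7, Tm4sf19, Vsig8 and Rgs1 the order of the HFD libraries was HFD 3, HFD 1, HFD 2, which was also the order of the macrophage marker sum. The measure rewards genes that are near 0 on ND and of equal size on HFD, so it ranks shape and level together.

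**Figure D1:**
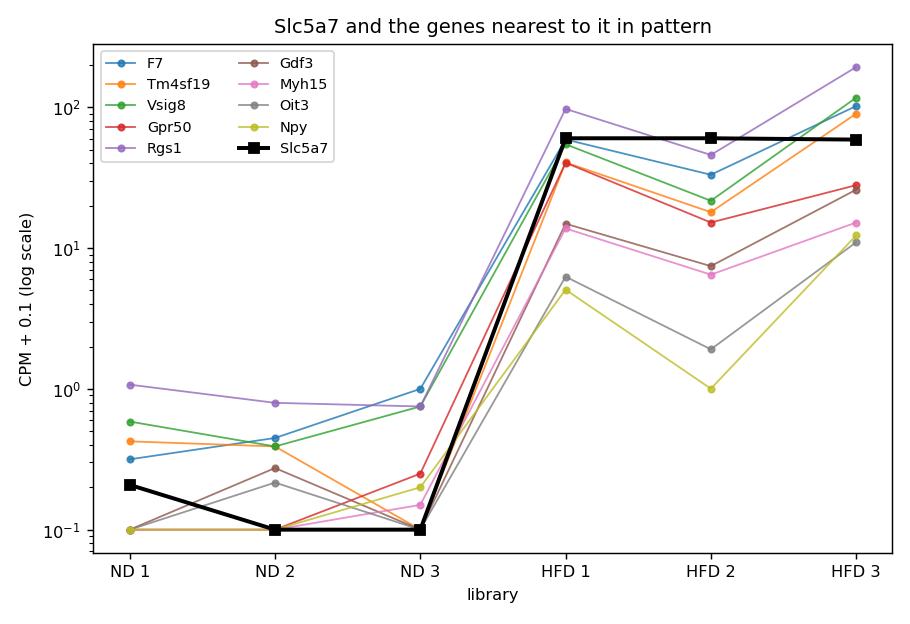
CPM + 0.1 on a log axis in each of the 6 libraries for Slc5a7 (black squares) and the 9 genes nearest to it by either measure (circles), where lines join the points of 1 gene and the order of libraries within a diet has no meaning. Slc5a7 is level over HFD 1 to 3, at 58.9 to 60.2 CPM, while each of the others dips in HFD 2.

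Chat and Slc18a3, the genes for making acetylcholine and loading it into vesicles, were at 0 or under the floor in every library. Chat (ENSMUSG00000021919, chr14:32408203-32465989), the enzyme that makes acetylcholine, had 0 counts in all 6 libraries, which allows a level of up to 0.150 to 0.181 CPM per library. Slc18a3 (ENSMUSG00000100241, chr14:32462438-32464850), the vesicular acetylcholine transporter whose gene lies within the span of Chat, had 1 count in ND 2 and 0 in the other 5 libraries. Both were too low for the test. At this depth a difference between the diets in either gene was not detectable, and the HFD libraries that held Slc5a7 held none of Chat or Slc18a3.

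Transcripts of nerve markers were low on both diets, and the amount of nerve in the tissue was not measured. The summed level of 10 pan-neuronal markers was 9.74 to 16.2 CPM in the ND libraries and 8.09 to 12.3 CPM in those on HFD, and 0 of the 2 that could be tested passed by edgeR's quasi-likelihood test and 0 of 2 by limma-voom. Stmn2 was the largest term of that sum outside ND 3, at 7.29, 6.32 and 5.5 CPM in ND 1, 2 and 3. It was at 4.59, 8.31 and 5.18 CPM in HFD 1, 2 and 3. In ND 3 the largest was Rbfox3, at 8.0 CPM. Tubb3 had an unadjusted p under 0.05 and was higher on HFD without overlap, with 16, 21 and 3 counts in ND 1, 2 and 3 and 36, 31 and 66 in HFD 1, 2 and 3 (log2 fold change 1.78, edgeR adjusted p = 0.112). DESeq2 called 1 of 6, Rbfox3, lower, with 10, 4 and 160 counts in ND 1, 2 and 3 and 3, 5 and 2 in HFD 1, 2 and 3, so most of its counts came from ND 3, the library with the epithelial markers. The 5 sympathetic markers summed to 1.86 to 11.8 CPM on ND and 2.35 to 5.59 CPM on HFD, with Dbh, the enzyme that makes noradrenaline, at 0 in every library and 0 of 2 tested genes called by edgeR (0 at an unadjusted p under 0.05) or limma-voom and 1 of 3 by DESeq2, Ddc, lower, whose counts were 13, 5 and 174 in ND 1, 2 and 3 against 3, 0 and 9, again mostly from ND 3. The 5 regulators of cholinergic neurons, transcription factors and a vesicle protein, summed to 1.22 to 2.90 CPM on ND and 1.14 to 2.46 CPM on HFD, and the 1 tested by edgeR and limma-voom was not called (0 at an unadjusted p under 0.05). One of them, Lhx8, a transcription factor of cholinergic forebrain neurons, was singled out after its values were seen: it had 0 counts in each ND library and 4, 10 and 11 in HFD 1, 2 and 3, too few for the edgeR test and called higher by DESeq2. Schwann cell markers (8 genes, 7 tested) summed to 40.4 to 55.2 CPM on ND and 77.4 to 81.6 CPM on HFD, with Mbp higher and Cdh19 lower.

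Among the other 9 members, 7 had enough counts to be tested, and 0 passed edgeR's quasi-likelihood test at an adjusted p under 0.05, where 15.9% of the 15751 tested genes did. With no adjustment, 2 of the 7 (Bche and Slc44a3, both lower) had a p under 0.05, against 34% of all genes in either direction and 15.3% lower. DESeq2 called 1 of the 7 to which it gave an adjusted p, Bche, lower on HFD, against 8.81% of all genes called lower and 20% called in either direction. The ND and HFD libraries did not overlap in 3 of the 7, Bche, Slc44a3 and Ache, each lower on HFD, against 19.1% of all genes in that direction and 40.9% in either. None was higher without overlap, against 21.7%. The median log2 fold change of the 7 was -0.12, and of all tested genes 0.0074.

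**Figure D2:**
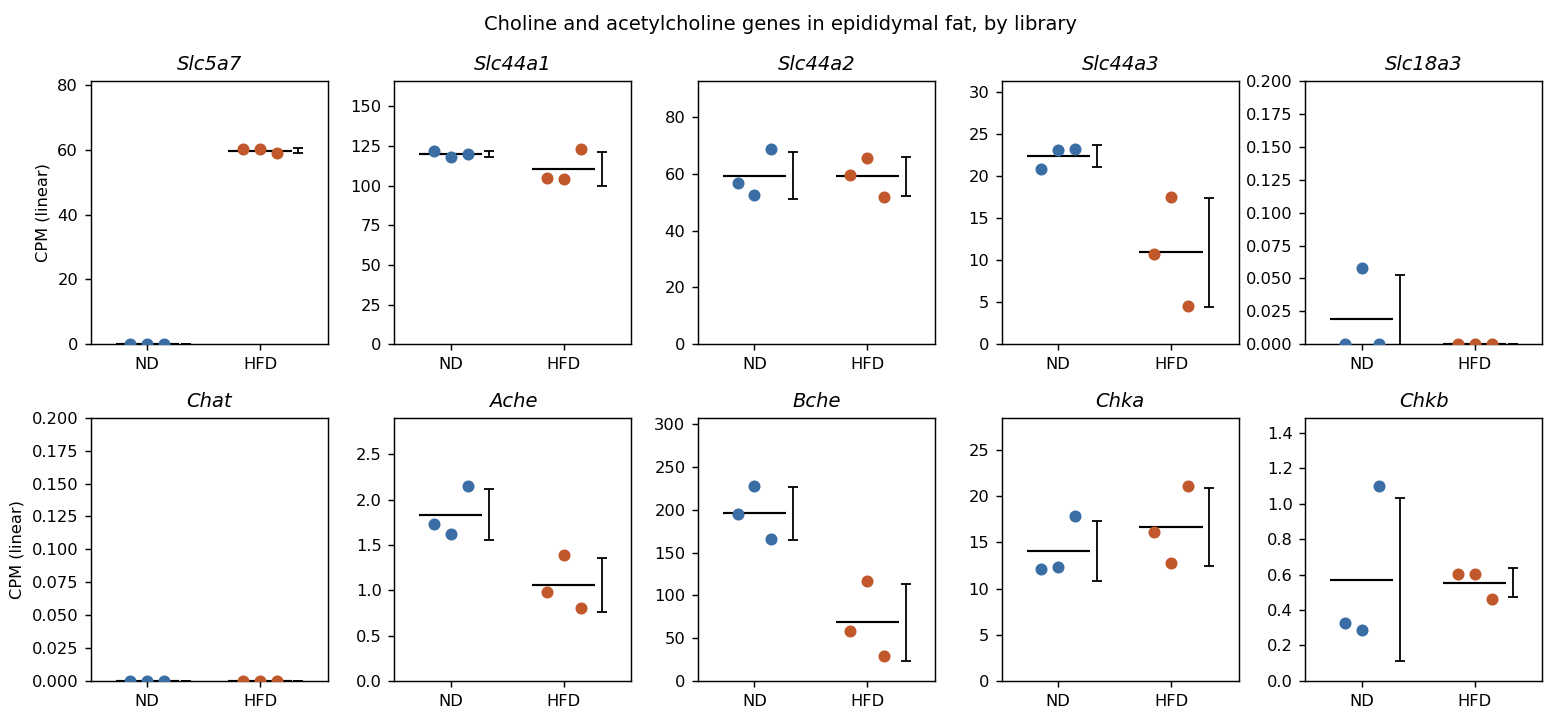
CPM on a linear axis from 0 for the 10 members, each point 1 library, with the horizontal line at the mean of the diet and the bracket to its right at 1 SD (n = 3), cut off at 0. Slc5a7 is at 58.9 to 60.2 CPM on HFD and at most 0.108 CPM on ND, Bche, Slc44a3 and Ache are lower on HFD without overlap, and Chat is at 0 throughout.

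The Slc44 carriers take up choline with lower affinity than Slc5a7 and are the usual route outside nerve. Slc44a1 (ENSMUSG00000028412, chr4:53440413-53622478), the most widely expressed of them, was at 122, 118 and 120 CPM in ND 1, 2 and 3 and at 105, 104 and 123 CPM in HFD 1, 2 and 3. HFD 3 was above every ND library, so the diets overlapped, and the log2 fold change was -0.12 (95% interval -0.39 to 0.15, adjusted p = 0.507 by edgeR). Slc44a2 (ENSMUSG00000057193, chr9:21320698-21355028) was at 56.8, 52.6 and 68.6 CPM on ND and at 59.7, 65.6 and 51.8 CPM on HFD. Its log2 fold change was -0.01, with an interval of -0.35 to 0.33 (edgeR adjusted p = 0.979). For these carriers the intervals leave room for log2 differences of up to 0.39 downward and 0.33 upward.

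Slc44a3 (ENSMUSG00000039865, chr3:121459528-121532404), another of the family, was lower in all 3 HFD libraries than in any ND library. It was at 20.9, 23.1 and 23.2 CPM in ND 1, 2 and 3 and at 10.7, 17.5 and 4.55 CPM in HFD 1, 2 and 3. The ND libraries lay close together, at 22.4 ± 1.33 CPM (SD, n = 3), whereas those on HFD spread over a factor of almost 4, at 10.9 ± 6.46 CPM. The log2 fold change was -1.04 (SE 0.42, 95% interval -2.02 to -0.06), and it did not pass, with an adjusted p = 0.129 by edgeR. Over 15 other ways of running the test the adjusted p ranged from 0.0205 to 0.285, and it was under 0.05 in 1 of them, the one without HFD 2, where the log2 fold change was -1.55.

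Per unit of transcript length, Slc5a7 took a place among the choline carriers of the member list on HFD. FPKM, the deposited value that divides fragments by exon length and library total, allows different genes to be set side by side. Of the summed FPKM of Slc5a7, Slc44a1, Slc44a2 and Slc44a3, Slc5a7 made up 0.0676%, 0% and 0% in ND 1, 2 and 3 and 30.6%, 29.1% and 29.9% in HFD 1, 2 and 3. Slc44a1 made up 60.6% ± 2.17 on ND and 44.9% ± 4.99 on HFD, and it was the largest in all 6 libraries. The share of Slc44a2 was 23.9% ± 2.34 on ND and 19.2% ± 1.86 on HFD, and that of Slc44a3 15.5% ± 1.01 and 6.03% ± 3.43 (SD, n = 3 each). These shares must sum to the whole, so a larger Slc5a7 share lowers the others even where their own levels differ little. Choline carriers outside the member list are not in the sum, among them Flvcr1, with a mean of 6.28 FPKM on HFD.

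**Figure D3:**
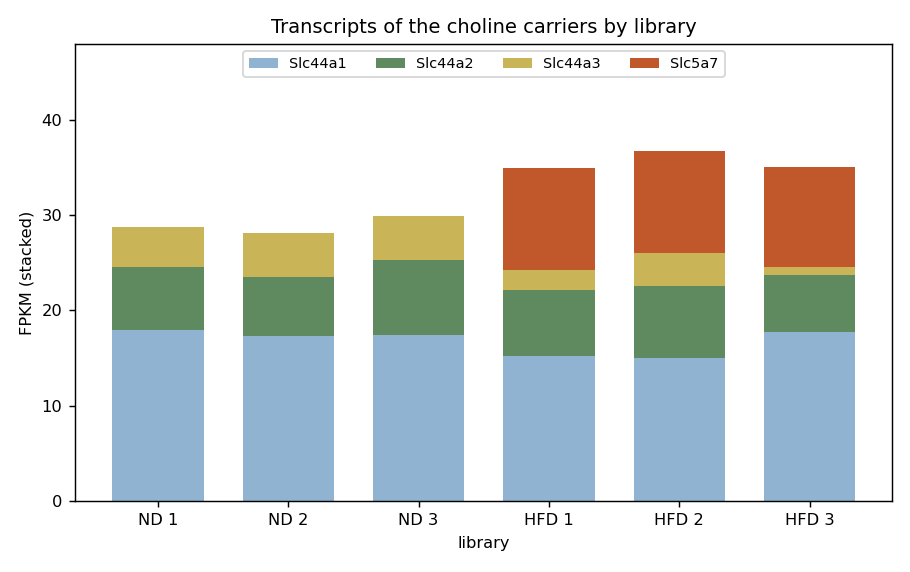
Stacked FPKM of Slc44a1, Slc44a2, Slc44a3 and Slc5a7 in each library, on a linear axis from 0, with no error bar because each bar is 1 library. The summed FPKM was 28.8, 28.1 and 29.9 in ND 1, 2 and 3 and 35.0, 36.8 and 35.0 in HFD 1, 2 and 3, with Slc5a7 visible in the HFD bars alone.

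The order of all members by mean FPKM changed at its top. On ND it was Bche (29.6 ± 4.86), Slc44a1 (17.5 ± 0.357), Slc44a2 (6.93 ± 0.903), Slc44a3 (4.5 ± 0.251), Chka (1.18 ± 0.261), Ache (0.402 ± 0.0573) and Chkb (0.188 ± 0.149), each SD over 3 libraries, with Slc18a3, Slc5a7 and Chat at or near 0. Neighbours down to Chka stood apart in their ranges, while Ache and Chkb overlapped. On HFD the order was Slc44a1 (16 ± 1.48), Slc5a7 (10.6 ± 0.148), Bche (10.2 ± 6.61), Slc44a2 (6.84 ± 0.814), Slc44a3 (2.17 ± 1.29), Chka (1.39 ± 0.346), Ache (0.230 ± 0.0648) and Chkb (0.182 ± 0.027), with Chat and Slc18a3 at 0. There Slc44a1 stood apart from Slc5a7, but the ranges of Slc5a7 and Bche, of Bche and Slc44a2, of Slc44a3 and Chka, and of Ache and Chkb overlapped. Slc5a7 went from rank 9 to rank 2, and the order was the same when CPM was divided by annotated exon length.

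Both cholinesterases, the enzymes that hydrolyse acetylcholine, were lower in every HFD library than in any ND library, and neither passed the edgeR test. Bche (ENSMUSG00000027792, chr3:73635808-73708415), which encodes butyrylcholinesterase, a serum and tissue enzyme of broad specificity, was at 195, 228 and 166 CPM in ND 1, 2 and 3 and at 58.3, 117 and 29.7 CPM in HFD 1, 2 and 3. Relative to the ND mean the HFD libraries held 29.6%, 59.3% and 15.1%, so the diets did not overlap, but HFD 2 held almost 4 times as much as HFD 3. The mean of the ND libraries was 197 ± 30.8 CPM and that of the HFD libraries 68.2 ± 44.3 CPM (SD, n = 3), a log2 fold change of -1.53 (SE 0.45, 95% interval -2.58 to -0.48) with an adjusted p = 0.0584 by edgeR.

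The Bche result sat at the edge of the threshold. Over 15 other ways of running the test its log2 fold change was -2.16 to -1.19, always lower on HFD, and its adjusted p 0.00238 to 0.193. It was under 0.05 in 5 of the 15: DESeq2's Wald test (0.00238), limma-voom (0.0481), limma on log2(FPKM + 1) (0.0471), edgeR with the replicate number as a block (0.0326) and edgeR without HFD 2 (0.00497). The HFD libraries ranked HFD 2, HFD 1, HFD 3 for Bche, Slc44a3 and Ache alike, which was also the rank of the adipocyte marker sum at 81.4%, 53.7% and 34.8% of its ND mean. The fall in that sum was largely that of Cfd. Whether the mix of cells had a part in the levels of Bche, Slc44a3 and Ache was not tested.

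Ache (ENSMUSG00000023328, chr5:137287519-137294466), the acetylcholinesterase of synapses and red cells, was read at a far lower level. It had 32, 28 and 43 counts in ND 1, 2 and 3 and 18, 23 and 14 in HFD 1, 2 and 3, or 1.73, 1.62 and 2.15 CPM against 0.984, 1.39 and 0.806 CPM. Its log2 fold change was -0.79 (SE 0.35, 95% interval -1.61 to 0.02), with an adjusted p = 0.156 by edgeR and of 0.113 to 0.358 over the alternatives. Colq and Prima1, which anchor acetylcholinesterase outside the cell, had at most 10 counts in any library and were not tested.

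The choline kinases, which commit choline to phosphatidylcholine, showed no difference beyond the spread of the libraries. Chka (ENSMUSG00000024843, chr19:3851773-3894369) was at 12.1, 12.3 and 17.8 CPM on ND and at 16.1, 12.8 and 21.1 CPM on HFD, overlapping. Its log2 fold change was 0.24, with an interval of -0.32 to 0.81 (edgeR adjusted p = 0.512). Chkb (ENSMUSG00000022617, chr15:89426360-89429908) had 6, 5 and 22 counts in ND 1, 2 and 3 and 11, 10 and 8 in HFD 1, 2 and 3. Its interval, -1.44 to 1.32, was too wide to say much (log2 fold change -0.06, edgeR adjusted p = 0.955), and the sign turned to 0.81 without ND 3, the library with the epithelial markers. Of the exon bases of Chkb, 57.6% overlap exons of C730034F03Rik on the opposite strand or Gm44502 on the same strand, and whether the counting used strand is not given in the sources used here, so its reads cannot be assigned with certainty.

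The other genes of choline metabolism moved in both directions, the largest fall being that of an oxidation enzyme. Of 34 genes in 5 groups, 27 were tested, 2 rose and 4 fell at an adjusted p under 0.05 by edgeR, and 21 did not pass, where 9.85% of all tested genes rose and 6.04% fell. At an unadjusted edgeR p under 0.05 the counts were 6 higher and 8 lower of the 27. Over all tested genes that share was 34% in either direction and 15.3% lower. The median log2 fold change of the 27 was -0.12. These calls depend on which libraries enter: without ND 1, ND 2, ND 3 or HFD 1 none of the 27 passed (10 to 13 had an unadjusted p under 0.05), and without HFD 2 there were 12. Other settings changed which genes passed: the replicate block also called 6 but lost Flvcr2 and Cept1 and gained Aldh7a1 and Sardh, and with no filter there were 4 (Flvcr1, Pcyt1a, Pnpla7 and Enpp2). Over all genes the count went the same way, from 2504 to between 474 and 1003 without any of those libraries and to 3940 without HFD 2.

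Chdh, choline dehydrogenase, which oxidises choline in mitochondria on the way to betaine, had the largest log2 fold change of the 27 tested. Of the untested genes, Slc44a4 and Etnk2 had larger ratios between the diets, carried by ND 3 (5, 2 and 157 counts of Etnk2 in ND 1, 2 and 3). Chdh was at 97.5, 83.1 and 125 CPM in ND 1, 2 and 3 and at 15.2, 34.2 and 8.18 CPM in HFD 1, 2 and 3, with the diets far apart. The mean fell from 102 ± 21.1 to 19.2 ± 13.5 CPM (SD, n = 3), a log2 fold change of -2.41 (SE 0.48, adjusted p = 0.0203 by edgeR). Of the rest of the oxidation group, Aldh7a1 (betaine aldehyde dehydrogenase among other activities) had a log2 fold change of -0.58 (edgeR adjusted p = 0.0550) and Sardh, sarcosine dehydrogenase, -0.54 (edgeR adjusted p = 0.114), neither passing. DESeq2 called Aldh7a1 lower, and edgeR called both lower with the replicate number as a block and without HFD 2. Bhmt2 and Dmgdh had 0 counts in all libraries, and Bhmt was too low for the test.

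Carriers outside the Slc44 members went in opposite directions. Flvcr1, a carrier of choline and haem, was at 10.7, 10 and 12.3 CPM on ND and at 29.7, 19.6 and 48 CPM on HFD, and it rose (log2 fold change 1.55, SE 0.31, adjusted p = 0.0208 by edgeR). Its relative Flvcr2, a choline carrier of blood vessels in the brain, fell from 5.13, 3.42 and 2.80 CPM to 1.53, 1.69 and 0.806 CPM (log2 fold change -1.49, SE 0.40, edgeR adjusted p = 0.0452). The Flvcr2 call was lost with library size alone, with no filter, in both FPKM fits and with the replicate block. It was also lost without ND 1, ND 2, ND 3, HFD 1 or HFD 3. Neither Flvcr1 nor Flvcr2 overlapped between the diets. For Flvcr1, 15.6% of exon bases overlap an antisense gene, A230020J21Rik. Slc44a4, a carrier of epithelia, had 8, 10 and 216 counts in ND 1, 2 and 3 and 0, 1 and 0 on HFD, so nearly all its reads came from the library with the epithelial markers.

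In the CDP-choline route, Cept1, an enzyme that joins the choline or ethanolamine head group to diacylglycerol, fell from 70.0, 77.0 and 71.0 CPM in ND 1, 2 and 3 to 50.8, 49.5 and 58.0 CPM in HFD 1, 2 and 3 (log2 fold change -0.46, SE 0.11, adjusted p = 0.0343 by edgeR), with 24.9% of its exon bases shared with other annotated genes. The Cept1 call was lost with no filter, with the replicate block and without ND 1, ND 2, ND 3, HFD 1 or HFD 2. Pcyt1a, the rate-limiting enzyme of the route, had a mean of 73.5 ± 10.7 CPM over the ND libraries and of 119 ± 27.4 CPM over the HFD libraries (SD, n = 3) and just missed the threshold (log2 fold change 0.70, edgeR adjusted p = 0.0515). DESeq2 called it higher, as did edgeR with library size alone, with no filter and without HFD 2. Chpt1, cholinephosphotransferase, was at 1304, 1658 and 1168 CPM on ND and at 725, 1189 and 497 CPM on HFD. There HFD 2 overlapped the ND libraries and the adjusted p was 0.151 by edgeR. None of the 5 tested genes of the ethanolamine and methylation route passed by edgeR (1 higher and 1 lower at an unadjusted p under 0.05), DESeq2 or limma-voom.

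Of the 12 enzymes listed for the breakdown of choline lipids and of its products, all tested, 1 rose and 1 fell, a share close to the 15.9% of all tested genes that passed in either direction. Enpp2, the secreted lysophospholipase autotaxin, which frees choline from lysophosphatidylcholine and is made by fat cells, was at 355, 322 and 287 CPM on ND and at 140, 215 and 100 CPM on HFD. It fell from 321 ± 34.4 to 152 ± 58.2 CPM (log2 fold change -1.08, SE 0.28, adjusted p = 0.0395 by edgeR). Pnpla7, a lysophospholipase of intracellular membranes, rose from 22.0, 26.0 and 27.8 CPM to 38.5, 36.4 and 48 CPM (log2 fold change 0.70, SE 0.15, edgeR adjusted p = 0.0257).

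**Figure D4:**
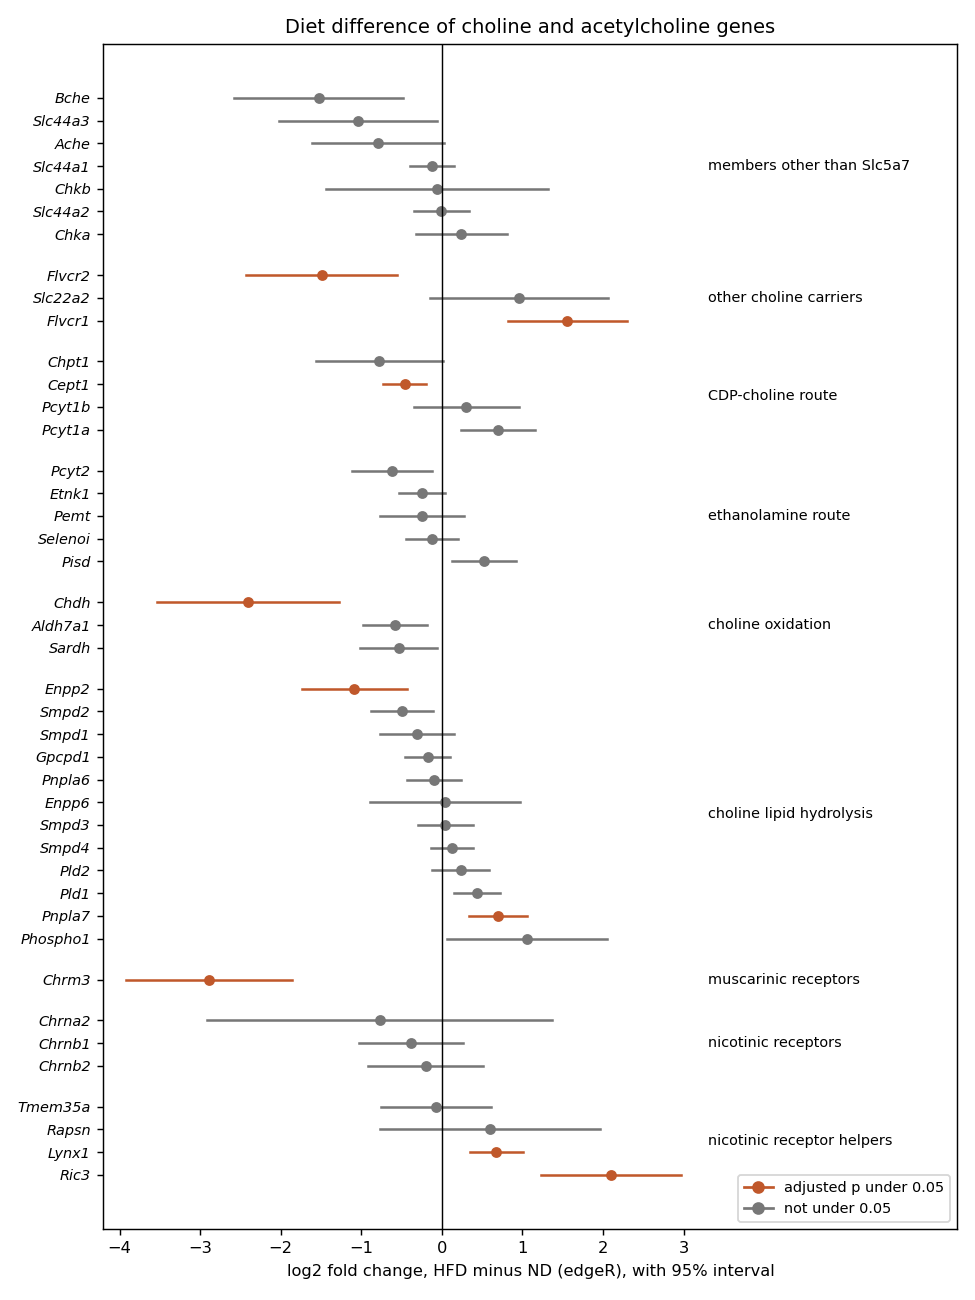
Log2 fold change, HFD minus ND, from edgeR with its 95% interval for the tested members other than Slc5a7 and the tested genes of each pathway list, in orange where the adjusted p was under 0.05. No member is orange, and the orange points run from -2.89 for Chrm3 to 2.10 for Ric3.

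The receptors for acetylcholine were mostly near the floor, and 1 of them fell. Of 28 genes for receptors and their partners, 8 were tested, and 2 rose and 1 fell at an adjusted p under 0.05 by edgeR, while 20 were too low. Over all tested genes 9.85% rose and 6.04% fell. Chrm3, the muscarinic receptor of smooth muscle and glands, had 59, 28 and 50 counts in ND 1, 2 and 3 and 8, 5 and 4 in HFD 1, 2 and 3, or 3.19, 1.62 and 2.50 CPM against 0.437, 0.301 and 0.230 CPM. Its log2 fold change was -2.89 (SE 0.44, adjusted p = 0.0101 by edgeR), and it passed in each of the 6 fits that leave out a library. The other 4 muscarinic receptors were too low for the test.

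Among 16 nicotinic receptor subunits, 3 were tested and none passed by edgeR (0 at an unadjusted p under 0.05) or limma-voom, nor did any of the 5 that DESeq2 tested. Chrnb1, a subunit of the muscle receptor, had 167, 148 and 239 counts in ND 1, 2 and 3 and 177, 132 and 88 in HFD 1, 2 and 3 (log2 fold change -0.38, edgeR adjusted p = 0.367). Chrnb2, a subunit of neuronal receptors, had 31, 38 and 45 counts in ND 1, 2 and 3 and 38, 29 and 26 in HFD 1, 2 and 3 (log2 fold change -0.20, edgeR adjusted p = 0.681), and 16.3% of its exon bases overlap Adar on the opposite strand. Chrna2, another neuronal subunit, had 19, 14 and 199 counts in ND 1, 2 and 3 and 36, 44 and 40 on HFD, so that ND 3 alone was high (edgeR adjusted p = 0.586), and Chrna5 had 5 to 17 counts in any library and was not tested. Chrna6, Chrna10, Chrnb3, Chrnd and Chrng were at 0 in all libraries. Skeletal muscle markers (5 genes, 2 tested), which could carry subunits of the muscle receptor, summed to 23.0 to 66.8 CPM on ND and 3.77 to 7.35 CPM on HFD, with Ckm and Myh4 at 0. Nearly all of that sum was Acta1, which was lower on HFD (409, 1128 and 606 counts against 58, 95 and 66), while Mylpf overlapped (edgeR adjusted p = 0.533) and Tnnt3 had at most 8 counts in any library and was higher on HFD.

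The genes that rose in this group encode proteins that help or modulate nicotinic receptors. Ric3, a chaperone for nicotinic receptor assembly, was at 8.15, 6.38 and 8.20 CPM on ND and at 32.1, 48.8 and 16.9 CPM on HFD (log2 fold change 2.10, SE 0.37, adjusted p = 0.0142 by edgeR). Lynx1, a membrane-anchored modulator of nicotinic receptors, was at 21.7, 20.9 and 21.7 CPM on ND and at 34.9, 39.4 and 28.8 CPM on HFD (log2 fold change 0.68, SE 0.14, edgeR adjusted p = 0.0220). Neither overlapped between the diets, both were highest in HFD 2 and lowest in HFD 3, and both calls were lost without ND 1, ND 2, ND 3 or HFD 1.

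Set by library, the members and called pathway genes fell into different orders over the HFD libraries. Bche, Slc44a3, Ache, Chdh and Enpp2, all lower on HFD, were least reduced in HFD 2 and most in HFD 3, like the adipocyte marker sum, of whose 10 genes Lep was called higher and Retn and Cfd lower. Flvcr1 and Pnpla7 were highest in HFD 3 and lowest in HFD 2, like the macrophage marker sum (9 of 12 genes higher) and the sum of 10 lipid-associated macrophage markers (8 of 10 higher, 3548 to 4646 CPM on ND and 11081, 8545 and 20532 CPM in HFD 1, 2 and 3). Cd36, not called by edgeR, made up most of the latter sum on ND, at 3458, 4150 and 3202 CPM in ND 1, 2 and 3. Trem2 was at 7.77, 7.66 and 9.7 CPM in those libraries. Over all tested genes 9.85% rose and 6.04% fell by edgeR. Ric3 and Lynx1 rose while keeping the adipocyte order. Cept1 was least reduced in HFD 3 and most in HFD 2 (69.9%, 68.1% and 79.8% of its ND mean in HFD 1, 2 and 3), Chrm3 was least reduced in HFD 1 (17.9%, 12.4% and 9.46%), and Flvcr2 stood at 40.4%, 44.6% and 21.3%. Slc5a7 was too even over the HFD libraries to be given an order. With 3 libraries there are few possible orders, and these are descriptions. What part the mix of cells had in each was not tested.

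Markers of other cells differed less. None of 6 T cell markers (8.96 to 12.4 CPM on ND and 10.8 to 16 CPM on HFD, summed), 5 B cell markers (5.85 to 18.7 and 6.57 to 20.4 CPM), 5 endothelial markers (929 to 1234 and 525 to 997 CPM), 6 progenitor and fibroblast markers (2009 to 2406 and 2107 to 2550 CPM), 5 mesothelial markers (203 to 296 and 141 to 251 CPM) or 7 epithelial markers (2 tested) passed edgeR's test. At an unadjusted p under 0.05 there were 1 endothelial and 1 epithelial marker lower and 0 in the other 4 lists. By DESeq2 1 endothelial marker, Kdr, and 1 epithelial marker, Esrp1, were lower, the latter with 9, 3 and 86 counts in ND 1, 2 and 3, and limma-voom called 0.

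**Figure D5:**
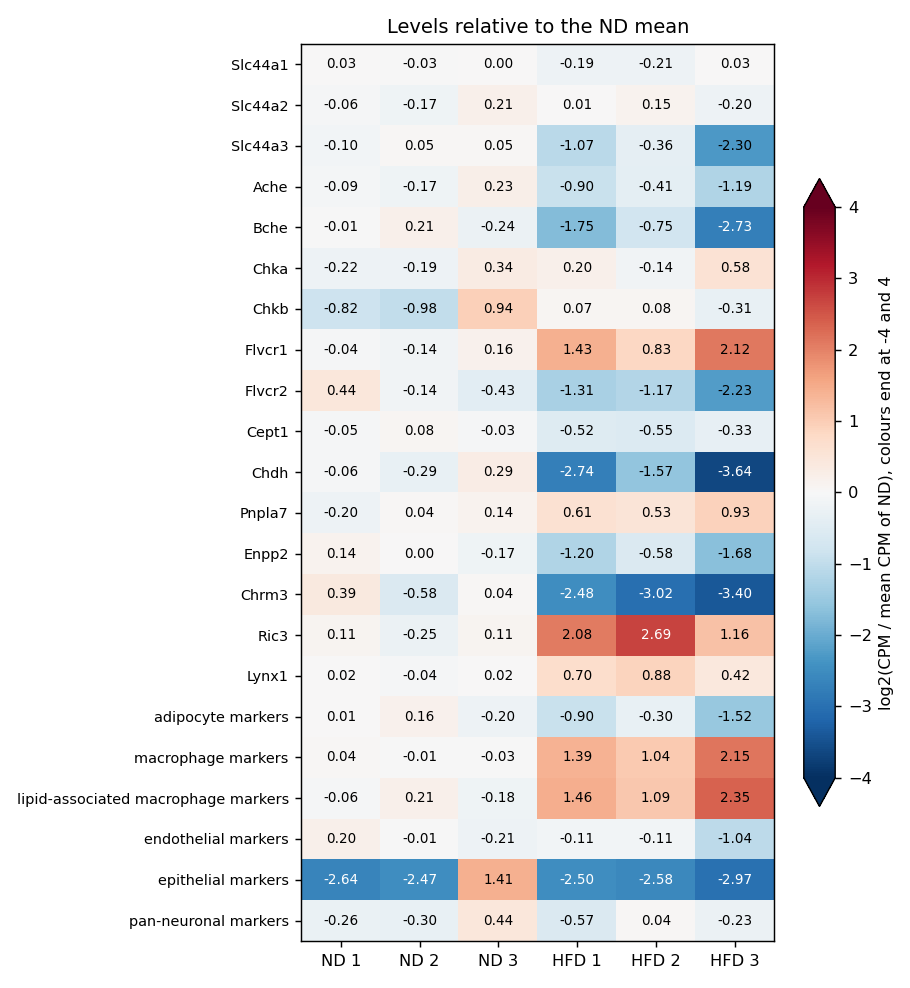
Log2 of the CPM in each library over the mean CPM of ND for the tested members other than Slc5a7, the called pathway genes and 6 summed marker lists, with colours that end at -4 and 4 and the value printed in each cell. In HFD 1, 2 and 3 Bche reads -1.75, -0.75 and -2.73 and the adipocyte marker sum -0.90, -0.30 and -1.52, while the macrophage marker sum reads 1.39, 1.04 and 2.15.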

How the data were processed

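Whole epididymal fat of mice on ND (3 libraries) or HFD (3 libraries) was sequenced from NEBNext Ultra RNA libraries. The authors deposited 1 table of raw read counts per gene and 1 of FPKM, that is fragments relative to exon length and library total. The study's methods name TopHat and Cufflinks on GRCm38, whereas the submitters' processing notes list CASAVA 1.8, fastp, HISAT2 2.0.5, featureCounts 1.5.0-p3 and DESeq2 1.20.0 and a human build. The mouse gene identifiers go against that build, and which aligner made the counts, and whether counting used strand, is not given in the sources used here. Reads without molecular identifiers are not independent molecules, so the floor covers counting error only.

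Of 54532 identifiers, 54495 were found in GENCODE M21. Counts were fitted in R 4.3.3 with edgeR 4.0.16 (TMM, filterByExpr, robust quasi-likelihood test, diet as the only term, Benjamini-Hochberg over 15751 genes, threshold 0.05), after a check on simulated data. Alternatives were DESeq2 1.42.0, limma 3.58.1 (voom, and log2(FPKM + 1) or log2(FPKM + 0.1) after removing genes under an FPKM of 0.5 in more than 3 libraries), DESeq2 size factors, library size alone, no filter, at least 10 counts in 3 libraries, the replicate number as a block, and leaving out each library. The members, gene lists and marker lists were chosen with earlier results of these data known. Named were all members, pathway genes that passed (up to 8 per list), receptors with at least 10 counts in a library, and the 5 genes nearest to Slc5a7 by each of the measures described. Near misses and list members outside this rule, such as Pcyt1a, Chpt1, Aldh7a1, Sardh, Etnk2, Slc44a4 and single marker genes, were named after their values were seen.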

Additional observations from a re-analysis of the deposited data

How the results depend on the processing

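Besides Slc5a7, 0 members passed in the fit reported above. DESeq2's Wald test, limma-voom, limma on log2(FPKM + 1) and edgeR with the replicate number as a block each called 1, Bche, and leaving out libraries gave 0 to 2, the higher number without HFD 2 (Slc44a3 and Bche). The called genes of choline metabolism numbered 0 to 12 when a library was left out (0 without ND 1, ND 2, ND 3 or HFD 1, and 12 without HFD 2), and those of acetylcholine receptors and partners 1 to 3. The lower bound on Slc5a7 was 342-fold to 369-fold when a library was left out. FPKM gives no count floor, so no bound was set on that scale. Of 101 values of single members under an alternative, 6 changed sign: Chkb to 0.18 with limma-voom, 0.14 with the replicate block, 0.81 without ND 3 and 0.05 without HFD 3, and Slc44a2 to 0.078 without ND 3 and 0.064 without HFD 3. With a library left out, Chkb ran from -0.36 to 0.81 and Slc44a2 from -0.086 to 0.078 on the log2 scale. The cause was not tested. The values showed no sign that the replicate number paired the libraries. Deviations of same-numbered libraries correlated at -0.0674, -0.0387 and -0.00212, and 0 correlated best with its own number. With 3 libraries per diet a weak shared batch could be missed. The replicate block called 1886 genes against 2504. Among choline metabolism genes it lost Flvcr2 and Cept1 and gained Aldh7a1 and Sardh. Depth limits Chat, Slc18a3, Chkb, Ache and most receptors.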
